A study of Mus musculus with 6 samples.

Results

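The 10 genes described here are the NOTCH receptors Notch1, Notch2, Notch3 and Notch4, the ligands Dll1, Dll3 and Jag1, and the transcriptional targets Hes1, Hes5 and Hey1. They were taken by gene name from the arrays, which gave 14 probes for the 10 genes, of 41174 probes and 27962 gene names in all. The RNA was that of mouse embryonic stem (ES) cells, a pluripotent type taken from the early embryo and grown in culture, of an F1 cross between 129 and C57BL/6. The cells had been given an siRNA against BRG1 or a scrambled control siRNA for 48 h, with 3 arrays in each group. BRG1, encoded by Smarca4, is the ATPase of SWI/SNF complexes, which slide and evict nucleosomes. No label states that the arrays of a group are separate cultures, and p-values here therefore reflect only array-to-array spread, possibly technical.

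NOTCH receptors are single-pass membrane proteins that meet ligands of the Delta-like and Jagged families on neighbouring cells. Ligand binding exposes the receptor to cleavage by an ADAM protease and then by gamma-secretase, and the freed intracellular domain enters the nucleus, where it joins the DNA-binding protein RBPJ and a Mastermind co-activator to switch on genes such as the HES and HEY repressors. In ES cells the pathway is known for its part in the exit from pluripotency, above all towards neural fates, and in the embryo it times the formation of somites.

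The sequences below show the bases and the genome positions of the probes, for the genes whose call passed the test and for those whose probes differed. Each line gives the first 30 of the 60 bases of a probe, 5′ to 3′, as the array files list it, and positions are on the mm7 build.
Hes5, chr4:153951780-153951839: acgatgatccttaaaggattcctttgtatg
Dll3, chr7:25227642-25227701: gaaagggctttattgtacatattgcttatt
Jag1 probe a, chr2:136822550-136822609: ggagtattctcataagctagttgaatactt
Jag1 probe b, chr2:136824059-136824118: acgagaacaaaaactccaaaatgtcaaaaa
Notch2 probe a, chr3:98021215-98021274: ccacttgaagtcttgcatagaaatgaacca
Notch2 probe b, chr3:98020144-98020203: tctgtggtaatctaggatgatagttttctc
Notch2 probe c, chr3:98018506-98018565: cccagagtctcctgaccaatggtcaagctc
Where a gene has several probes, probe a is the brightest over the 6 arrays and stands for the gene in counts of genes. No exon annotation of mm7 was used, and whether a probe lies in coding sequence or a UTR is not given. The 296 bases of genome covered by the Hes1 probe, on chromosome 16, exceed the 60 bases of the probe.

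The promoters of the genes that passed the test are shown because RBPJ, through which NOTCH acts, binds DNA at sites with the core GTGGGAA. Promoters run from 250 bases before to 50 bases after the transcription start and are RefSeq sequences on GRCm38.p6. Capitals mark GTGGGAA or its reverse complement TTCCCAC.
Hes5, chr4:154960673-154960972, plus strand: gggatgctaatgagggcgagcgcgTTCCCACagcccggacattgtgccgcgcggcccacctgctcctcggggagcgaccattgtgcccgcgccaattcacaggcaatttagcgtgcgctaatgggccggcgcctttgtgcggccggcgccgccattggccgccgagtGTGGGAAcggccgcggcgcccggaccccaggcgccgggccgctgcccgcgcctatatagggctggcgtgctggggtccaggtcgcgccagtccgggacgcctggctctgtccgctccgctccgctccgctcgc
Dll3, chr7:28301736-28302035, minus strand: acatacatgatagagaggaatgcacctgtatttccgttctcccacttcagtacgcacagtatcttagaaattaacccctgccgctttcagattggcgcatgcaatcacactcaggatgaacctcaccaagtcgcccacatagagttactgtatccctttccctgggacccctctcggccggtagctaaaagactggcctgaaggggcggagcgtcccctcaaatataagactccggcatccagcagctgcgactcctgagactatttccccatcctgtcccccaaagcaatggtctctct
Jag1, chr2:137116471-137116770, minus strand: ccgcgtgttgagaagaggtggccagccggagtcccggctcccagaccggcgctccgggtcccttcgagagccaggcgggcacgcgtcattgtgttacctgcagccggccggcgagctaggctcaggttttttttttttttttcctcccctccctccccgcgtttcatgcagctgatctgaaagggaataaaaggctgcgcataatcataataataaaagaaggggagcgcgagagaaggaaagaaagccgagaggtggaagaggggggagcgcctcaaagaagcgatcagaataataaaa
The Hes5 promoter holds the core 2 times, starting 226 bases before the start site as TTCCCAC and 83 bases before it as GTGGGAA. Of the 32851 promoters in the table, 6.38% hold at least 1 copy on either strand and 0.256% hold 2 or more. The table gave 9 promoters for 8 of the 10 genes, and the core was found in the Hes5 promoter and in none of the other 8. Those other 8 belong to receptors and ligands. No promoter was at hand for Hes1 and Hey1, so Hes5 could not be compared with the other targets. A match of letters is not a binding site, and the lack of a match concerns only this window.

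The siRNA lowered its target on every array. The Smarca4 probe at chr9:21582352-21582411 read 3.37, 3.50 and 3.33 on BRG1 siRNA replicates 1, 2 and 3, against 4.30, 4.28 and 4.24 on control siRNA replicates 1, 2 and 3, in log2 units above or below the array's own 75th percentile, the scale used throughout. This left 54.7% of the control signal, the lowest share of the Smarca4 probes. The dimmest probe left 66.2% and the brightest 65.8% (limma adjusted p = 0.00181, 0.00861 and 0.00455 in that order). The knockdown was thus partial at the level of RNA, and the arrays do not read protein. The share of spots well above background ran from 60.9% to 75.3% over the arrays, and 26257 probes were tested, each of them well above background on all 3 arrays of one group or of both. All 14 probes of the NOTCH genes met that rule. The arrays lay on 2 slides, each with its own scan time on the same day: slide 1 held the 3 control arrays and BRG1 siRNA replicate 1, and slide 2 held BRG1 siRNA replicates 2 and 3. Slide as a fixed block gives the change within slide 1, and that value stands beside each called gene of the 10.

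Of the 10 genes, 3 fell with BRG1 siRNA and 0 rose: the target Hes5 and the ligands Dll3 and Jag1. None of the 4 receptors passed the test. Among all genes tested, 21.4% were called, 12.4% lowered and 9.09% raised (limma, Benjamini-Hochberg adjusted p under 0.05 over probes), and the count of 3 lowered of 10 was not tested against that share. At an unadjusted p under 0.05, 6 of the 10 genes were lower and 0 were higher, against 21.6% lower and 16.0% higher of all genes tested. The median change of the 10 genes was -0.23 (log2), against -0.04 over all genes tested. BRG1 siRNA and control siRNA arrays did not overlap for 6 of the 10 genes, against 44.1% of all genes tested. By probe, 3 of 14 were called, all lowered, against 19.6% of all probes (11.0% lowered and 8.60% raised), and 8 of 14 had groups that did not overlap, against 41.6% of all probes. In bulk RNA, fewer cells that express a gene and less RNA per cell cannot be told apart.

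**Figure D1:**
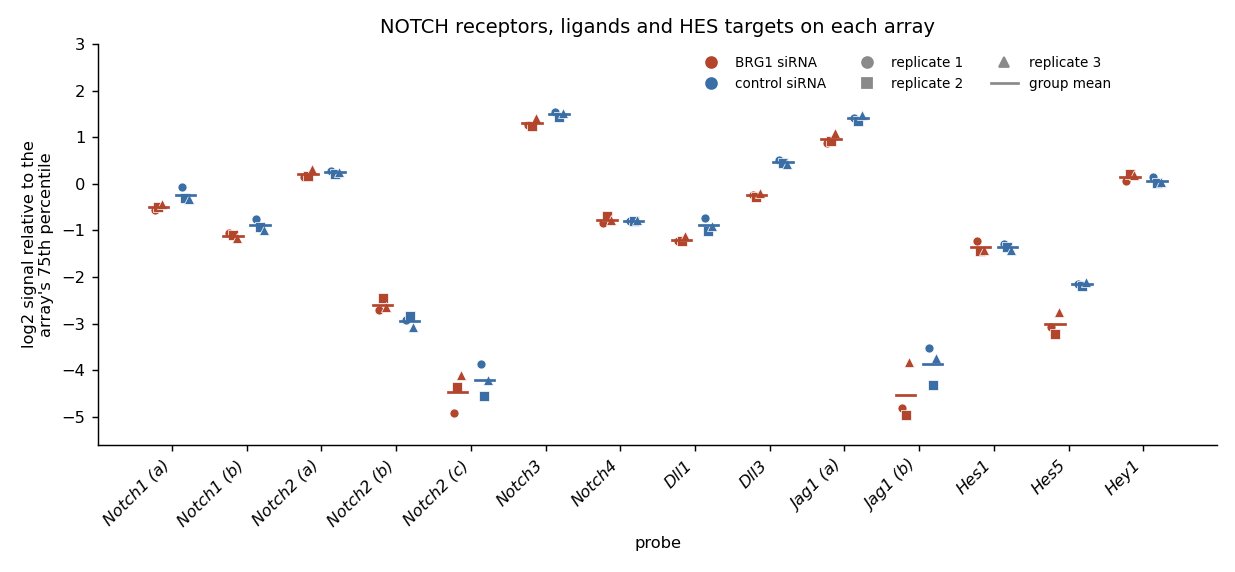
Log2 signal relative to the array's 75th percentile for the 14 probes of the 10 genes, with a point for each array, shaped by replicate, and a line for the group mean; BRG1 siRNA is drawn left of control siRNA and probes of a gene are lettered from the brightest. The groups lie clearly apart for Dll3, Jag1 probe a and Hes5, and largely coincide for Notch4, Hes1 and Hey1.

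**Figure D2:**
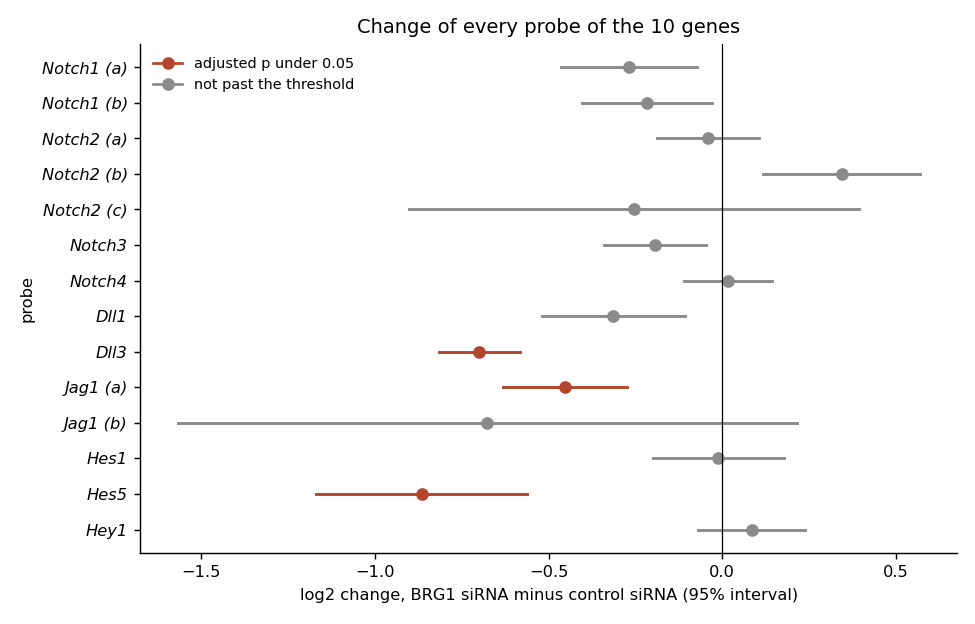
Log2 change (BRG1 siRNA minus control siRNA) of each of the 14 probes, with its 95% interval from the limma fit on 3 arrays a group. The 3 probes past the threshold all lie below 0, and the dim probes Notch2 c and Jag1 b have the widest intervals.

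Hes5 had the largest change of the 10 genes. It encodes a basic helix-loop-helix repressor that NOTCH switches on in neural progenitors. Its probe read -3.07, -3.22 and -2.75 on BRG1 siRNA replicates 1, 2 and 3, against -2.14, -2.20 and -2.10 on control siRNA replicates 1, 2 and 3. All BRG1 siRNA arrays lay below all control arrays, and the BRG1 siRNA arrays spread more widely (SD 0.24 against 0.05, n = 3 each). The signal dropped to 54.9% of control (-0.86 ± 0.12 SE, log2), with a 95% interval of 44.5% to 67.8% (adjusted p = 0.00896). Within slide 1 the change was -0.92, which did not pass the test with slide as a block (adjusted p = 0.0653). Leaving out any 1 array kept the call.

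Hes1 and Hey1, the other targets among the 10 genes, did not follow. Hes1, a repressor whose level oscillates in ES cells, read -1.22, -1.44 and -1.43 on BRG1 siRNA replicates 1, 2 and 3, against -1.28, -1.35 and -1.42 on control siRNA replicates 1, 2 and 3. The groups overlapped, and the change of -0.01 ± 0.08 (SE, log2) had a 95% interval of 87.0% to 113.0% of the control signal (adjusted p = 0.929), with a sign that turned under 8 alternatives. Hey1, a related repressor known from the heart and blood vessels, read 0.07, 0.20 and 0.18 on BRG1 siRNA replicates 1, 2 and 3, against 0.15, 0.01 and 0.03 on control siRNA replicates 1, 2 and 3. It overlapped too, at 106% (95% interval 95.2% to 118.0%, adjusted p = 0.387), and it passed the test as a rise with spike-in scaling (0.28, adjusted p = 0.0403).

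Because these genes are read on the same array, their difference does not depend on how arrays are scaled. Hes5 minus Hes1 was -1.65 ± 0.29 on BRG1 siRNA arrays and -0.80 ± 0.10 on control arrays (log2, SD, n = 3 each), and Hes5 minus Hey1 was -3.16 ± 0.25 and -2.21 ± 0.08. The groups did not overlap for either pair. In the exact two-sided permutation test both pairs gave p = 0.1, the smallest that 3 arrays against 3 allow (adjusted p = 0.133 over the 4 pairs compared, which were chosen after the values were seen).

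Among ligands, Dll3 gave the tightest fall. DLL3 is a divergent Delta-like protein of the somite-forming mesoderm that acts inside the cell and does not activate receptors on neighbours. Its probe read -0.24, -0.27 and -0.19 on BRG1 siRNA replicates 1, 2 and 3, against 0.52, 0.45 and 0.43 on control siRNA replicates 1, 2 and 3. Arrays of a group lay within a narrow band, with an SD of 0.04 in each, and the bands were well apart. The signal dropped to 61.6% of control (-0.70 ± 0.05 SE, log2, 95% interval 56.8% to 66.7%, adjusted p = 0.00181). Of the 10 genes it was the one whose call held with slide as a block, where the change was -0.70 (adjusted p = 0.0298). It also held without any 1 array, but not on slide 1 alone (adjusted p = 0.0679).

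Jag1, a ligand of the Jagged family, fell less and less firmly. Probe a read 0.89, 0.91 and 1.09 on BRG1 siRNA replicates 1, 2 and 3, against 1.41, 1.35 and 1.48 on control siRNA replicates 1, 2 and 3. The groups did not overlap, and the signal dropped to 73.1% of control (-0.45 ± 0.07 SE, log2, 95% interval 64.6% to 82.7%, adjusted p = 0.0121). It no longer passed with slide as a block (-0.53, adjusted p = 0.0579), with spike-in scaling (-0.25), with slide 1 alone, with the mean over its probes (-0.56), and without BRG1 siRNA replicate 2 (-0.43) or control siRNA replicate 3 (-0.42). Probe b lay near background, at -4.82, -4.96 and -3.82 on BRG1 siRNA arrays and -3.52, -4.31 and -3.73 on control arrays. It entered the test through the control group: the filter's signal level was reached by all 3 controls but by only 2 arrays given BRG1 siRNA. Its groups overlapped because BRG1 siRNA replicate 3 stood among the controls. Its change of -0.68 ± 0.36 (SE) did not pass the test (adjusted p = 0.242). It passed in 2 of 19 alternatives, with array weights and without BRG1 siRNA replicate 3 (-1.03, adjusted p = 0.0488). Because replicate 3 is the array that overlapped, no fall of probe b is drawn from leaving it out.

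Dll1, the Delta-like ligand that activates receptors across cells in somites and neural tissue, missed the threshold narrowly. It read -1.23, -1.23 and -1.13 on BRG1 siRNA replicates 1, 2 and 3, against -0.73, -1.01 and -0.91 on control siRNA replicates 1, 2 and 3. The groups did not overlap, and the change was -0.31 ± 0.08 (SE, log2), or 80.4% of the control signal with a 95% interval of 69.7% to 92.7% (adjusted p = 0.0503). Over the 22 alternatives its sign never turned and its adjusted p ran from 0.0163 to 0.310, below the threshold in 7 of them. Dll3 minus Dll1 was 0.96 ± 0.03 on BRG1 siRNA arrays and 1.35 ± 0.11 on control arrays (log2, SD, n = 3 each), without overlap, whereas Jag1 minus Dll1 was 2.16 ± 0.05 and 2.30 ± 0.14 and overlapped. The exact permutation p was 0.1 for the Dll3 pair, again the smallest possible, and 0.3 for the Jag1 pair (adjusted p = 0.133 and 0.3 over the 4 pairs).

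No receptor passed the test, though Notch1 and Notch3 read lower on every BRG1 siRNA array than on any control array. Notch1, the receptor best known from T cells and neural progenitors, read -0.55, -0.50 and -0.44 on BRG1 siRNA replicates 1, 2 and 3, against -0.08, -0.30 and -0.32 on control siRNA replicates 1, 2 and 3, at chr2:26466563-26466621. Control replicate 1 stood above the other controls, and the groups did not overlap. The change of -0.27 ± 0.08 (SE, log2), 83.0% of the control signal, missed the threshold (adjusted p = 0.0663). It passed in 2 of 22 alternatives, with a trended and robust variance and with array weights. The other Notch1 probe, which meets the first end to end at chr2:26466621-26466680, gave -0.22 ± 0.08 (adjusted p = 0.0998), also without overlap.

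Notch3, a receptor of vascular smooth muscle that ES cells also transcribe, read 1.27, 1.25 and 1.40 on BRG1 siRNA replicates 1, 2 and 3, against 1.53, 1.44 and 1.53 on control siRNA replicates 1, 2 and 3, at chr17:30311822-30311881. The groups came close without overlapping, and the change of -0.19 ± 0.06 (SE, log2), 87.4% of the control signal, did not pass the test (adjusted p = 0.0731). Without BRG1 siRNA replicate 3 it passed (-0.24, adjusted p = 0.0343), as it did with a trended and robust variance and with array weights. Scaling to spike-in probes gave a change of 0.0056. Notch4, the receptor typical of endothelium, read -0.84, -0.70 and -0.78 on BRG1 siRNA replicates 1, 2 and 3, against -0.80, -0.80 and -0.77 on control siRNA replicates 1, 2 and 3, at chr17:32669395-32669454. The control arrays lay within the range of the BRG1 siRNA arrays, and the 95% interval was 92.7% to 110.5% of the control signal (adjusted p = 0.839).

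The 3 probes of Notch2 differed in direction. Probe a read 0.14, 0.16 and 0.31 on BRG1 siRNA replicates 1, 2 and 3, against 0.27, 0.22 and 0.24 on control siRNA replicates 1, 2 and 3, an overlap with a change of -0.04 ± 0.06 (SE, log2, adjusted p = 0.657). Probe b, nearer the start of the gene, read -2.70, -2.45 and -2.65 on BRG1 siRNA replicates 1, 2 and 3, against -2.93, -2.83 and -3.07 on control siRNA replicates 1, 2 and 3. It was higher on every BRG1 siRNA array, by 0.34 ± 0.09 (SE), and lay just outside the threshold (adjusted p = 0.0514), which it passed in 7 of 20 alternatives. Probe c lay near background, from -4.92 to -4.11 on BRG1 siRNA arrays and from -4.56 to -3.86 on control arrays, with a change of -0.26 ± 0.26 (SE, adjusted p = 0.533). Whether probes a and b read different transcript ends was not tested.

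The Notch1 probe a and the Dll1 probe were each printed as 10 spots on an array, which shows how much of the spread arises within an array. The SD over the 10 spots was 0.053 to 0.076 (log2) for Notch1 and 0.070 to 0.105 for Dll1. The highest Notch1 spot on a BRG1 siRNA array (-0.32) lay above the lowest spot on a control array (-0.40), so single spots overlapped where array means did not. The means of the 3 control arrays spanned -0.32 to -0.08 for Notch1 and -1.01 to -0.73 for Dll1, wider than the means of the BRG1 siRNA arrays, at -0.55 to -0.44 and -1.23 to -1.13.

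**Figure D3:**
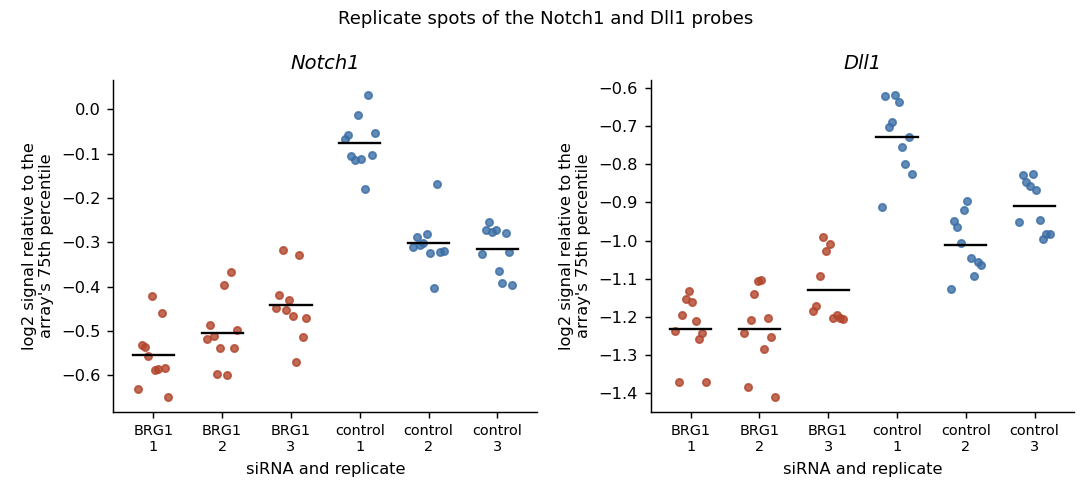
Log2 signal of each of the 10 replicate spots of the Notch1 probe a (left) and the Dll1 probe (right), relative to the array's 75th percentile, with a line at each array's mean; BRG1 siRNA arrays stand left of control arrays. Control replicate 1 is the highest array for both genes, and its distance from the other controls exceeds the SD of spots within an array.

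The wider pathway moved both ways. Of 57 listed genes, 53 were tested, and 7 rose and 9 fell, with a median change of -0.09 (log2). Without the 10 genes above, 7 of 43 tested genes rose and 6 fell, against 9.09% and 12.4% of all genes, with a median of -0.07. Groups did not overlap for 24 of these 43 genes, against 44.1% of all genes.

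Of 9 tested inhibitors and turnover factors, 3 rose and 3 fell, a count not tested against the 21.4% called of all genes. Dtx1, a deltex ubiquitin ligase that NOTCH itself induces in lymphoid cells, read 0.80, 0.87 and 0.82 on BRG1 siRNA replicates 1, 2 and 3, against 1.53, 1.61 and 1.57 on control siRNA replicates 1, 2 and 3. It fell 1.67-fold (-0.74 ± 0.05 SE, log2, adjusted p = 0.00157), and it stayed past the threshold when slide was a block and when any 1 array was left out. Its relative Dtx4 fell 1.39-fold (-0.48 ± 0.08, adjusted p = 0.0145), with all 3 of its probes called, whereas Dtx2 rose 1.29-fold (0.37 ± 0.05, adjusted p = 0.00622) and Dtx3 rose 1.20-fold (0.27 ± 0.06, adjusted p = 0.0266). The ubiquitin ligase gene Itch fell 1.21-fold (adjusted p = 0.0431), although the mean over its probes gave -0.16 (adjusted p = 0.639), and Fbxw7, whose product marks the NOTCH intracellular domain for destruction, rose 1.14-fold (adjusted p = 0.0495).

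Among genes that make and free the receptor, Pofut1, which adds the O-fucose that receptors need, rose 1.20-fold (0.27 ± 0.05 SE, log2, adjusted p = 0.0179), while its other probe was -0.38 (adjusted p = 0.273). Psenen, a gamma-secretase subunit, rose 1.31-fold (0.39 ± 0.04, adjusted p = 0.00518), and Furin, the protease that cuts the receptor in the Golgi, fell 1.20-fold (-0.26 ± 0.05, adjusted p = 0.0200). The mean over both Furin probes, of which the other was not well above background on any array, gave -0.10 (adjusted p = 0.584). Mib2, a ubiquitin ligase for ligand endocytosis, rose 1.32-fold (0.40 ± 0.04, adjusted p = 0.00477).

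Of nuclear effectors, Rbpj itself rose 1.18-fold (0.24 ± 0.05 SE, log2, adjusted p = 0.0206), and the co-activator gene Maml2 fell 1.63-fold (-0.71 ± 0.09, adjusted p = 0.00726) at a dim signal of -4.17 on BRG1 siRNA arrays and -3.46 on control arrays. Its other probe was not well above background on any array, and the mean over both gave -0.38 (adjusted p = 0.379). None of the 5 RBPJ co-repressor genes was called. Hes6, a HES family member that opposes HES1, fell 1.21-fold (-0.27 ± 0.04, adjusted p = 0.0127), and both of its probes were called. Heyl, a dim HES and HEY target, changed by -0.21 ± 0.10 (SE, log2), with overlap, and was not called (adjusted p = 0.203). Hes7 and Hey2 of the HES and HEY targets, and Maml3 and Hes3, were not well above background on all arrays of either group and were not tested.

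**Figure D4:**
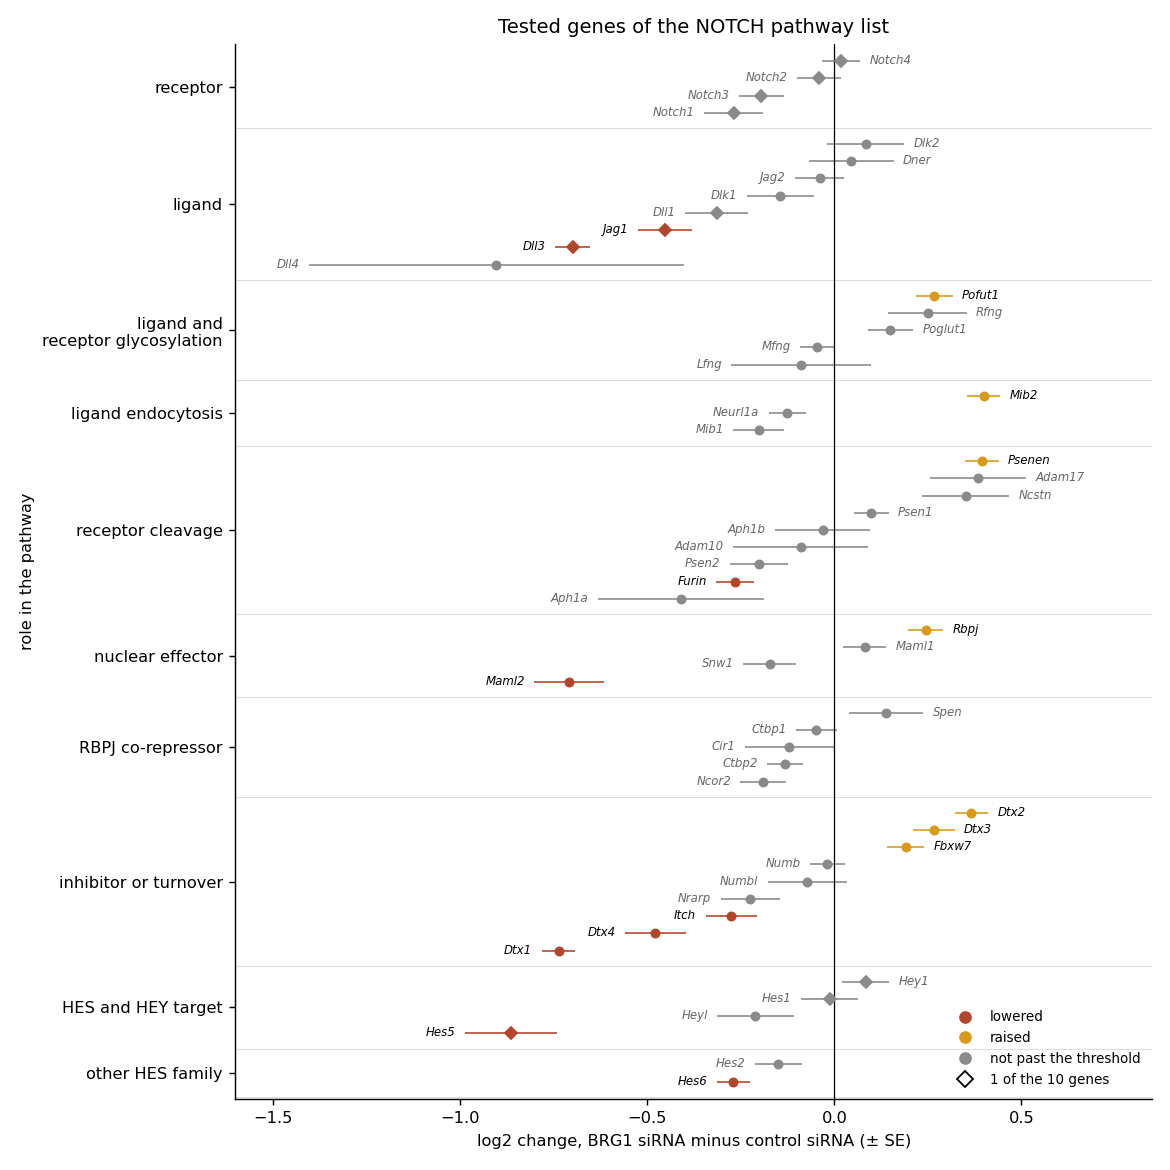
Log2 change (BRG1 siRNA minus control siRNA, ± SE) of the 53 tested genes of the pathway list by role, each at its brightest probe; diamonds mark the 10 genes and colours mark genes past the threshold. The 9 lowered and 7 raised genes are spread over most roles, with Hes5, Dtx1, Maml2 and Dll3 farthest below 0 among those called.

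Calls for 8 of the 13 genes were lost when 1 array or another was left out. Those for Dtx1, Dtx2, Mib2, Psenen and Maml2 held without any 1 array. The calls for Fbxw7 and Dtx3 were lost without each array in turn, and those for Itch and Furin without each array except BRG1 siRNA replicate 3. Those for Rbpj, Dtx4, Pofut1 and Hes6 were lost without BRG1 siRNA replicate 2 and without control replicate 2 or 3, Rbpj also without BRG1 siRNA replicate 1, and Dtx4 also without control replicate 1. With slide as a block, 1 of the 13 genes stayed past the threshold, Dtx1, and 12 did not, with adjusted p from 0.0518 for Mib2 to 0.124 for Pofut1 and no change of sign. In that fit 3 pathway genes were called, Dll3 and Dtx1 and, newly, Nrarp, a feedback inhibitor induced by NOTCH (-0.39 within slide 1, adjusted p = 0.0408, and -0.22 over all arrays, adjusted p = 0.102). Nrarp was named after its values were seen.

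Markers of other cell types were read on the same arrays. Of all genes tested, 12.4% were lowered and 9.09% raised, and the marker counts were not tested against those shares. Of 8 tested neural progenitor and neuronal markers 0 were called, and their summed level was 3.61 to 3.69 on BRG1 siRNA arrays and 3.65 to 3.69 on control arrays (log2); Neurog2, Olig2 and Dcx were not above background on every array. Of 7 tested streak and mesoderm markers 2 fell and 1 rose, with a summed level of -0.73 to -0.66 on BRG1 siRNA arrays and -0.34 to -0.17 on control arrays. Of 8 tested fibroblast markers 4 fell and 1 rose, with a summed level of 3.21 to 3.32 on BRG1 siRNA arrays and 3.82 to 3.95 on control arrays. Of 9 tested ES cell markers 3 rose and 1 fell, and the summed level was 8.84 to 8.90 on BRG1 siRNA arrays and 8.83 to 8.85 on control arrays. Of 3 tested endothelial markers 2 fell, with a summed level of -0.39 to -0.26 on BRG1 siRNA arrays and -0.21 to -0.09 on control arrays, and Cdh5, Tie1 and Emcn were not above background on every array. Of 6 tested trophoblast markers 3 fell and 2 rose, with a summed level of 3.33 to 3.42 on BRG1 siRNA arrays and 3.19 to 3.30 on control arrays. Of 6 tested endoderm markers 1 fell, with a summed level of -0.77 to -0.59 on BRG1 siRNA arrays and -0.77 to -0.28 on control arrays. With BRG1 siRNA the streak, fibroblast and endothelial sums were thus lower without overlap and the trophoblast sum higher without overlap. Groups also did not overlap for 44.1% of all genes tested, and no such share was computed for sums. The sums add linear signals, so bright markers weigh most in them. Tfap2c, the brightest trophoblast marker, rose by 0.30 (log2), whereas Cdx2, Eomes and Krt7 fell and the median change of that list was -0.31. Among neural markers the brightest, Tubb3, changed by 0.10 with overlap, and the next brightest, Nes, by -0.20 without overlap. Neither was called (adjusted p = 0.334 and 0.102). Among fibroblast markers the brightest, S100a4, fell by 1.09, while Lox rose by 0.75. T, the brightest streak marker on control arrays, fell by 2.01, while Hand1 rose by 0.79. Among endothelial markers the brightest, Pecam1, changed by -0.24 and Tek by -0.21, while Kdr changed by 0.11 and was not called. The part of these markers in the falls of Hes5, Dll3 and Jag1 was not tested.

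Among genes outside the pathway, those whose profile over the 6 arrays lay nearest to that of Hes5 were Gpm6b, a membrane glycoprotein of neurons and glia, Mrgprf, an orphan G protein-coupled receptor, and Apod, a lipid-binding protein. Their centred log2 profiles differed from that of Hes5 by a root mean square of 0.045, 0.050 and 0.066, among 14501 named genes compared. They fell by 0.81, 0.88 and 0.91 (log2), which follows from their choice by likeness to Hes5. All were dim, with group means from -4.52 to -3.23.

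**Figure D5:**
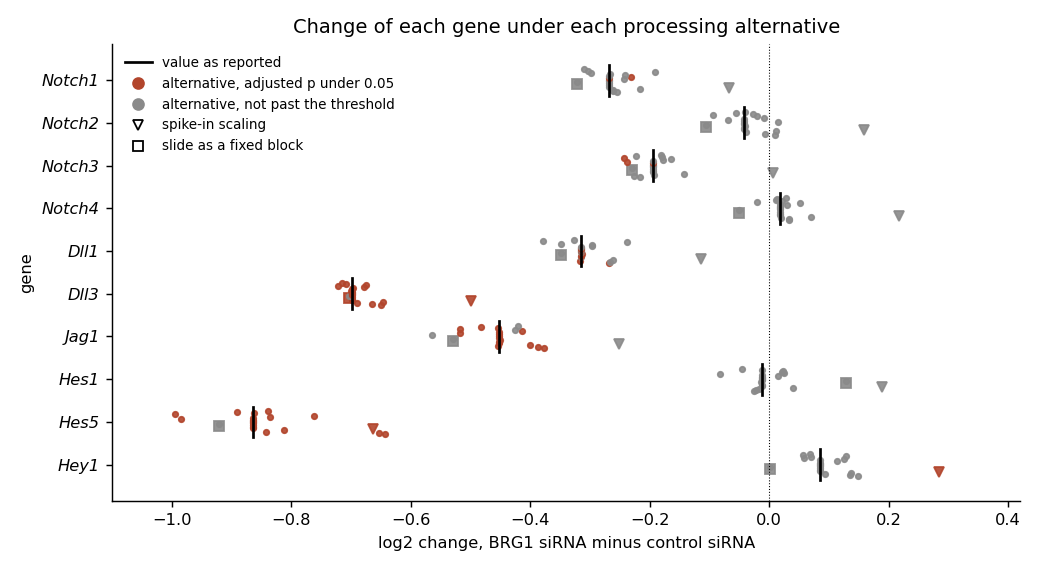
Log2 change (BRG1 siRNA minus control siRNA) of the 10 genes under each of the 22 processing alternatives, with the value as reported as a black line and alternatives past the threshold in red. Dll3, Hes5 and Jag1 stay below 0 throughout, and spike-in scaling (triangles) moves every gene upward by about the same amount.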

How the data were processed

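Total RNA was profiled on 6 single-colour Agilent arrays, 3 with BRG1 siRNA and 3 with control siRNA, grouped by the treatment label. Per the labels' protocols, Cy3-labelled cRNA was made from 500 ng of RNA after 48 h of siRNA. Spot intensity on a linear scale was deposited as scanner output of Agilent Feature Extraction 9.5.3.1 (9.5 in the submitters' processing notes) on array design 014868, with probes placed on mm7, per the file headers. The processed intensity had been background-subtracted and detrended within each array, not normalized between arrays. The deposited value table equals it, with a largest difference of 0, and is linear and not centred; its medians run from 161.8 to 185.5 over the arrays, and as single-colour values they carry no ratio direction.

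Each processed signal was divided by its array's 75th percentile, taken without control spots, and put on the log2 scale. Control spots and spots marked as outliers were left out, and spots of a probe were averaged. Testing required a signal well above background on all 3 arrays of either group. Groups were compared with limma 3.58.1 in R 4.3.3 (lmFit and eBayes, two-sided), with Benjamini-Hochberg adjustment over all 26257 probes and a threshold of 0.05. A gene was represented by its brightest probe. Names were updated through RefSeq accessions, symbols and synonyms (GRCm38.p6, for names only): 11883, 1756 and 915 of the 17623 tested genes, with 3069 kept as in the files. The named genes are the 10 genes and Smarca4 with every probe, the pathway genes past the threshold, and the 3 genes with the profile nearest to that of the most changed gene. The members, the lists and the tests were chosen with earlier results of these data known. The method was tested on simulated data. Precision is limited by the number of arrays. Alternatives changed the background correction, scaling, filter, slide, pairing, probe summary, variance model and arrays left out.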

Additional observations from a re-analysis of the deposited data

How the results depend on the processing

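All Dll3, Hes5 and Jag1 values stayed below 0 under the 22 alternatives run, from -0.72 to -0.50, -0.996 to -0.64 and -0.56 to -0.25 (log2), with 21, 20 and 16 of the alternatives past the threshold. Among the 10 genes, 1 was called with slide as a fixed block, 0 with slide 1 alone (limma; 4 at an unadjusted p under 0.05), 6 with a trended and robust variance and 6 with array weights, and 2 to 4 with 1 array left out. For the pathway list the count of 16 became 9 with median scaling, 8 with no filter on dim probes, 3 with slide as a fixed block, 0 with slide 1 alone (25 at an unadjusted p under 0.05), 10 with the mean over probes and 25 with array weights, and 7 to 20 with 1 array left out. The count of all probes, 5154, became 2031, 1856, 1267, 78, 2553 (genes) and 8927 under the same settings, and 1634 to 5707 with 1 array left out. Slide 1 alone sets 1 BRG1 siRNA array against 3 controls and assumes that it varies like them. Spike-in scaling moved the median of all probes to 0.17 (log2, -0.03 as reported) and the share of rises among calls to 86.6%, against 43.8% as reported, 50.5% with median scaling, 50.3% with quantile normalization and 50.1% with normexp and quantile normalization; with it the median of the 10 genes was -0.03.

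Same-numbered arrays were not treated as pairs. Their deviations from the group means correlated at -0.30, 0.11 and 0.14 for replicates 1, 2 and 3. Arrays of unlike number gave -0.39 to 0.35, so these correlations cannot settle whether arrays are paired. The replicate number as a block gave 9 pathway genes and 2150 probes, with 3 of the 10 genes called. For Smarca4, spike-in scaling took the dimmest probe to -0.39, slide as a block gave -0.53 and -0.54 for 2 probes, and slide 1 alone gave -0.90, -0.53 and -0.54, none past the threshold. Signs turned for values that were not called: Notch2 probe a (0.0089 with normexp and quantile normalization, 0.011 with median scaling, 0.16 with spike-in scaling, 0.015 with the mean over probes), Notch3 (0.0056 with spike-in scaling), Notch4 (-0.050 with slide as a block or slide 1 alone, and -0.021 to 0.051 with 1 array left out) and Hes1 (0.041 with median scaling, 0.19 with spike-in scaling, 0.13 with slide as a block or slide 1 alone, 0.015 with array weights, and -0.082 to 0.025 with 1 array left out, above 0 without BRG1 siRNA replicate 2 or 3 or control replicate 1). Of called genes Pofut1 turned, to -0.054 with the mean over its probes, which averages in its other probe. Other causes were not tested.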
